A study of Homo sapiens with 2 samples.

Results

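The genes described here are 5 aquaporins (AQP1, AQP3, AQP5, AQP8 and AQP11) and 5 genes of anion transport and anion-permeable channels (CFTR, SLC26A3, SLC12A2, CLIC5 and PANX1). The 10 genes were chosen by name with their log2 ratios of siIFITM1 over siLuc known, and every probe set annotated to 1 of them alone was used, 27 of the 41091 probe sets that name 1 gene. The 10 genes stand among 19775 genes in all. Expression was measured in HT-29, an established line of human colorectal adenocarcinoma cells. One sample was transfected with siLuc, a small interfering RNA (siRNA) against firefly luciferase, and served as the control. The other was transfected with siIFITM1, an siRNA against the mRNA of IFITM1, an interferon-induced membrane protein. Both RNAs were taken 72 h after transfection and each was read on 1 array. With 1 array per siRNA there was no spread between replicates, so every difference is described by its size and no test was possible. The labels do not say whether 1 siRNA or a pool was used against each target.

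Aquaporins are membrane channels through which water crosses epithelial cells, and some of them, AQP3 among them, also pass glycerol. Intestinal fluid secretion is driven by chloride, which enters the cell at its base through the cotransporter encoded by SLC12A2 (NKCC1) and leaves at the lumen through CFTR, the channel mutated in cystic fibrosis. In the opposite direction SLC26A3, an exchanger of chloride for bicarbonate, absorbs chloride from the lumen of the colon.

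All values are array signals on a linear scale, and log2 ratios are siIFITM1 over siLuc. The filter floor was 57.4, the median over non-control probe sets of the geometric mean of both signals. Genes at or above 393, the 75th percentile, are called brighter, and the others above the floor are called dimmer. A gene is represented by its probe set of highest mean log2 signal. Median signals were 64.1 with siLuc and 59.9 with siIFITM1, and over the 12225 genes past the filter the median log2 ratio was -0.02. IFITM1 itself went from 640 to 237, which is 37.1% of the control. This is the single probe set that names IFITM1 alone, and its ID ending stands for probes that match several transcripts. Of 17 colon epithelial and carcinoma marker genes on the array, 13 were brighter genes, with log2 ratios from -0.23 to 0.36, while CDX1, CDX2, GPA33 and PHGR1 were below the filter on this array pair. Of 12 leukocyte genes on the array 6 passed, and the only brighter one was LYZ (lysozyme). Log2 ratios of these 6 ran from -0.87 to 0.45, with a median of -0.31. Of 12 fibroblast and muscle genes 7 passed, all of them dimmer genes, with a median log2 ratio of -0.49 and LUM (lumican) the one 2-fold apart, from 132 to 386. The summed signal of these 7 was 861 with siLuc and 949 with siIFITM1, and that of all 12 was 1082 and 1056.

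With siIFITM1, the signal of AQP5 was 9.76-fold lower, CLIC5 was 2.13-fold higher and PANX1 was 2.07-fold higher at its brightest probe set. AQP1, AQP3, CFTR and SLC12A2 were lower by smaller amounts, AQP11 was higher, and AQP8 and SLC26A3 gave no signal above the filter floor. Past the filter were 8 of the 10 genes and 19 of the 27 probe sets. Among all genes past the filter, 1.01% were at least 2-fold higher and 2.01% at least 2-fold lower. The members were listed with these results known, so their counts of 2 higher and 1 lower are a description and are not set against those shares.

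**Figure D1:**
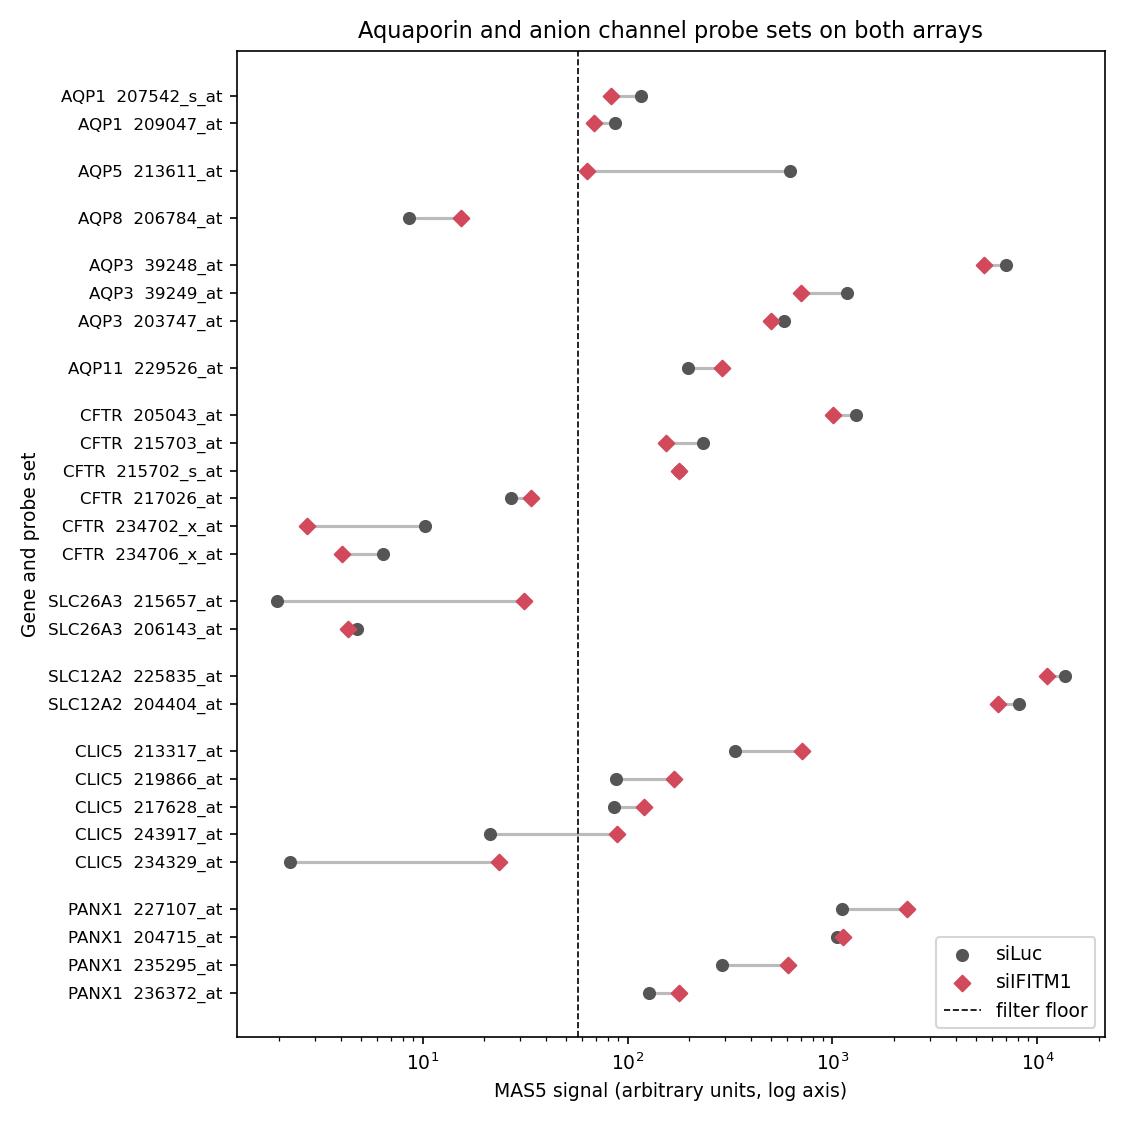
Signals of the 27 probe sets of the 10 genes with siLuc (grey circles) and with siIFITM1 (red diamonds), on a log axis, with the filter floor of 57.4 as a dashed line. AQP5 spans 617 to 63.2, and both SLC26A3 probe sets and the single AQP8 probe set lie left of the floor on both arrays. The 3 CLIC5 probe sets past the filter and all 4 PANX1 probe sets are further right with siIFITM1.

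AQP5, a water channel of secretory glands and airway epithelium, had the largest difference among the genes past the filter in this set. Its single probe set read 617 with siLuc and 63.2 with siIFITM1, a log2 ratio of -3.29. The control signal was above the level that marks brighter genes, and the siIFITM1 signal was just above the filter floor. The siIFITM1 signal was 10.2% of the control signal, but so near the floor this does not measure the share of AQP5 mRNA left. AQP5 ranked 3 from the lowest among 12225 genes. It is a dimmer gene by its mean over both arrays, and of dimmer genes 5.39% were at least 2-fold lower and 0.0677% were as low as AQP5. No further probe set of AQP5 is annotated, so the value has no second reading on these arrays.

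The protein-coding genes on either side of AQP5 in the RefSeq gene order are also aquaporins. AQP2, the vasopressin-regulated channel of the kidney, read 92.7 with siLuc and 69.7 with siIFITM1 at its brightest probe set, a log2 ratio of -0.41. A second AQP2 probe set past the filter had -0.46, and another lay below the floor on both arrays (6.35 and 2.40). AQP6, an intracellular aquaporin of the kidney, was below the filter at both of its probe sets, the brighter of which went from 45.4 to 40.2. Both neighbours were close to or below the floor on both arrays. A fall as large as that of AQP5 could therefore not have been read above the floor in either, and no contrast with AQP5 is drawn.

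AQP1, the water channel of red cells and endothelium, was a dimmer gene with both probe sets lower. One went from 116 to 83.4 (log2 ratio -0.48) and the other from 86.4 to 68.4 (log2 ratio -0.34). The first represents the gene, and its ID ending stands for probes that match several transcripts. Dimmer probe sets of 1 gene differed from each other with an SD of 0.496, larger than either ratio, and 22.3% of dimmer genes were as low as the first. AQP1 is also a marker of endothelium and red cells. Of 10 other genes of those cells on the array 3 passed the filter, none of them a brighter gene, and the summed signal of all 10 was 493 with siLuc and 487 with siIFITM1. Von Willebrand factor (VWF), CDH5, TEK, KDR and EMCN, which mark endothelium, were below the filter, while PECAM1 went from 150 to 126 and CLDN5 from 84.3 to 47.4. The red cell gene HBB went the other way, from 93.1 to 141. Their part in the AQP1 values was not tested.

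AQP3, the aquaglyceroporin of the basolateral membrane, was lower at all 3 of its probe sets, each of them bright. The brightest went from 7037 to 5503 (log2 ratio -0.35). The second went from 1177 to 705 (-0.74), and the third from 580 to 501 (-0.21). The direction was shared while the size was not, with an SD of 0.273 over the 3 ratios, against 0.193 within genes over all brighter probe sets. Among 2797 genes with at least 3 probe sets past the filter, 17.3% were lower at every one, so the shared direction is common on this array pair.

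AQP11, an intracellular aquaporin, was the one aquaporin past the filter with a higher signal after siIFITM1. Its single probe set went from 198 to 291 (log2 ratio 0.55). As a dimmer gene it had a ratio close to the SD of 0.567 between dimmer genes, and 9.25% of dimmer genes were as high. AQP8, a water channel of the colon surface, read 8.59 with siLuc and 15.4 with siIFITM1. Both values lie far below the filter floor, where 48.3% of probe sets that name 1 gene were at least 2-fold apart, so no direction is given for it.

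CFTR had 6 probe sets, 3 of them past the filter, of which 2 were lower and 1 was level. The brightest went from 1309 to 1004 (log2 ratio -0.38), a value as low as that of 6.44% of brighter genes. The second went from 235 to 154 (-0.61). The third was level, at 178 on both arrays (0.0066), and its ID ending stands for probes that match several transcripts. The SD over these 3 ratios was 0.312, below the 0.367 found within genes over all probe sets past the filter. The other 3 probe sets of CFTR had signals of 2.74 to 33.9 and lie below the floor on both arrays.

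SLC12A2, the cotransporter that loads epithelial cells with chloride, had the closest agreement between probe sets among the described genes. One went from 13680 to 11111 (log2 ratio -0.30) and the other from 8125 to 6397 (-0.35), a gap of 0.045. The siIFITM1 signals were 81.2% and 78.7% of the control. Ratios vary little at such signals. Among the 1223 genes in the top 10% of signal past the filter, a group chosen after the values were seen, the SD was 0.165, and 3.68% of them were as low as SLC12A2. AQP3 belongs to the same group, in which 2.86% of genes were as low as its brightest probe set. Among all brighter genes, 10.3% were as low as SLC12A2 and 7.53% as low as AQP3. Both are therefore small differences, and how far they lie toward the low end depends on the group of genes used.

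SLC26A3 lay below the floor at both probe sets, and no direction is given for it. Its probe sets read 4.81 and 1.94 with siLuc, and 4.30 and 31.2 with siIFITM1. The log2 ratio of 4.01 at the second comes from signals that were below the floor of 57.4 on both arrays, and the other probe set had -0.16.

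CLIC5, a chloride intracellular channel protein tied to the actin cytoskeleton and to ezrin, had 5 probe sets. It was higher with siIFITM1 at all 3 that passed the filter. The brightest went from 333 to 709 (log2 ratio 1.09). The next went from 88.0 to 169 (0.94), and the third from 86.3 to 121 (0.48). Of the remaining pair, one went from 21.4, below the floor, to 88.6, and the other was below it on both arrays (2.25 and 23.5). Neither passed the filter, and no direction is counted for them. CLIC5 is a brighter gene by its mean over both arrays, and of brighter genes 0.18% were at least 2-fold higher. Its siLuc signal of 333 was below the level of 393, so it is in that band only through its siIFITM1 signal. The shares of brighter genes given for CLIC5 depend on this. The SD between genes was 0.263 among brighter genes and 0.567 among dimmer genes. It ranked 93 from the highest among all genes past the filter. Among genes with at least 3 probe sets past the filter, 17.2% were higher at every one, so a shared direction is common. Of brighter genes, 0.0898% had a ratio as high as the 1.09 of CLIC5. CLIC5 was listed with that ratio known, so the share only describes it. The mean log2 ratio over the 3 CLIC5 probe sets past the filter was 0.84, below 2-fold.

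PANX1, a large-pore channel of the plasma membrane that releases ATP, was higher at all 4 of its probe sets, but they split by size. One probe set went from 1116 to 2310 (log2 ratio 1.05), and another from 290 to 609 (1.07). A further bright probe set was nearly level, at 1056 with siLuc and 1125 with siIFITM1 (0.09). The dimmest went from 127 to 178 (0.49). The nearly level probe set is the one whose record in the probe table is a RefSeq mRNA. The other 3 are represented by other GenBank records, and where in the transcript each probe set lies was not analysed here. The range over the 3 bright probe sets was 0.98. One of them read 290 with siLuc, below the level of 393, and counts as bright only through its siIFITM1 signal. The gap between the other bright probe sets was 0.96. Of 2954 genes with several bright probe sets, 19 (0.643%) had a range as wide, and the median range was 0.20. Some of those genes have fewer bright probe sets than PANX1, and a range tends to grow with their number, so this share is only a description. PANX1 was 1 of 6 genes, out of 6087 with several probe sets past the filter, that had at least 2 probe sets 2-fold higher. It was listed with its ratios known and has 4 probe sets past the filter, more than many of those genes need to be counted. This number is therefore a description only. The mean log2 ratio over the 4 probe sets was 0.68, below 2-fold. Whether the 2-fold difference describes all PANX1 transcripts was not tested.

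**Figure D2:**
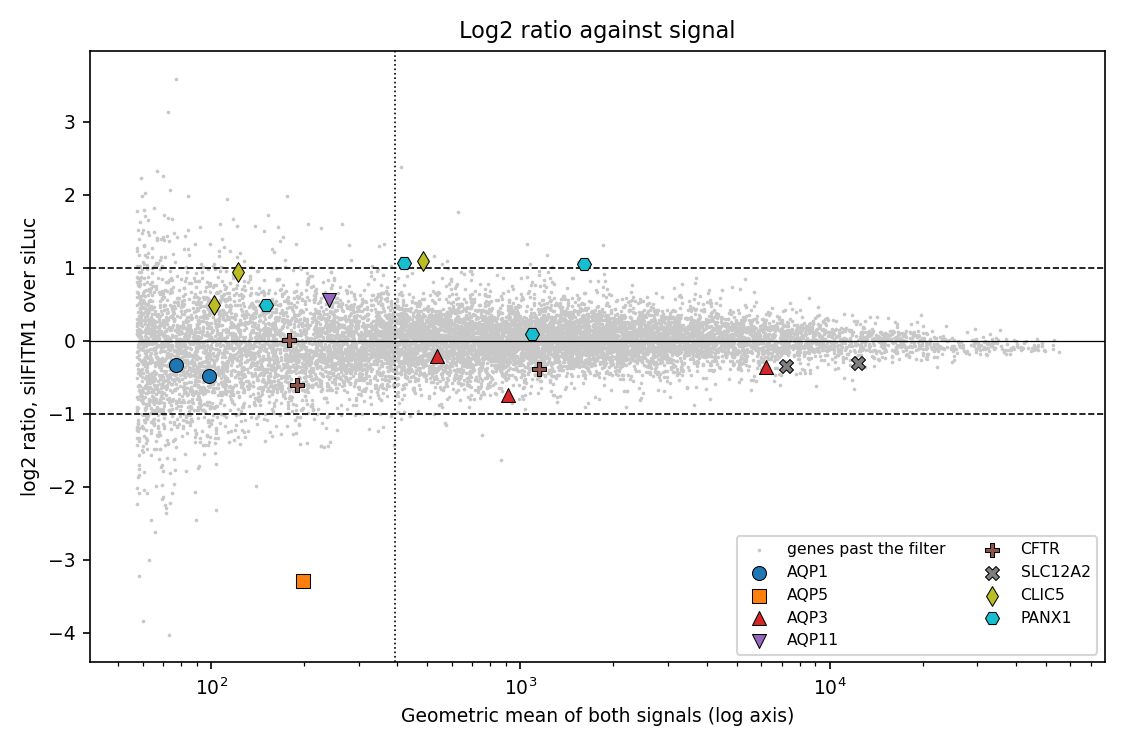
Log2 ratio of siIFITM1 over siLuc against the geometric mean of both signals (log axis) for the 12225 genes past the filter (grey) and the 19 probe sets of the described genes past it (coloured symbols). Dashed lines mark 2-fold, and the dotted line marks 393, the start of the brighter genes. AQP5 lies at -3.29, both SLC12A2 probe sets lie near -0.3 at the bright end where the grey points are narrow, and the PANX1 probe sets lie between 0.09 and 1.07.

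The wider set of transport genes was then described through 7 lists of 153 genes, of which 133 had a probe set of their own and 75 passed the filter. Of these 75, 35 had a ratio above 0 and 40 below, 2 were at least 2-fold higher and 2 at least 2-fold lower. Over all 12225 genes past the filter, 47.4% were above 0 and 52.6% below. The shares at least 2-fold higher and lower were 1.01% and 2.01%. Of all dimmer genes, 58.1% were below 0. The directions over the 75 genes were close to those of all genes, and the counts of single lists below are descriptions. All 4 list genes past the 2-fold line were dimmer genes with 1 array below the filter floor. They were ANO7, an anoctamin (from 41.9 to 133), SLC4A4, a sodium bicarbonate cotransporter (from 40.5 to 130), SLC26A9, a chloride transporter of airway and stomach (from 113 to 53.5), and GUCA2A, which encodes guanylin, a peptide that stimulates chloride secretion (from 88.7 to 44.2). None of the 37 brighter genes of these lists was 2-fold apart; among all brighter genes the share was 0.269%.

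Among the other aquaporins, AQP2 was the one gene of 6 on the array that passed the filter. AQP7, which lies next to AQP3 in the RefSeq gene order, has no probe set that names it alone. The remaining CLIC genes past the filter had smaller ratios than CLIC5, in both directions. CLIC1, a soluble chloride channel protein, read 17151 and 17145, CLIC3 went from 1647 to 1274 (log2 ratio -0.37), and CLIC4, named here to complete the 3 that passed, went from 5377 to 5886 (0.13), with another of its probe sets at -0.37. Of 6 pannexins and connexins past the filter, 2 were higher and 4 lower, with a median of -0.18. PANX2, a relative of PANX1, went from 75.3 to 121 (0.68), and the gap junction gene GJB1 from 156 to 243 (0.64). GJB2, which encodes connexin 26, went from 1887 to 1364 (-0.47), and GJB6 from 90.7 to 50.4, below the floor.

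Other chloride channels were divided, with 11 of 19 higher and a median of 0.05. ANO6, a scramblase and channel, went from 1790 to 2689 (log2 ratio 0.59), while BEST1, a bestrophin, was at 0.58 and CLCN1, the muscle chloride channel, at -0.53, both with signals near the floor. Anion exchangers and cation-chloride cotransporters outside the described genes had 5 higher, 7 lower and a median of -0.23. SLC12A7, a potassium chloride cotransporter that carries chloride out of the cell, went from 2369 to 1363 (-0.80). SLC4A7, a sodium bicarbonate cotransporter, went from 443 to 744 (0.75), and its 3 probe sets past the filter ran from 0.0076 to 2.21.

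Cation transporters that work beside these channels had 8 of 12 members below 0 and a median ratio of -0.26, against -0.02 for all genes past the filter. None was 2-fold apart, and the median of the 6 brighter members was -0.03. FXYD3, a regulator of the sodium pump, went from 3856 to 2902 (log2 ratio -0.41), and FXYD2, a second such regulator, from 98.9 to 57.1, below the floor. The sodium-proton exchanger gene SLC9A2 was at -0.52, and KCNK5, a potassium channel gene, was at 0.35. Regulators of CFTR and of chloride secretion were higher in 12 of 22 cases, with a median of 0.03. P2RY2, a receptor for ATP that stimulates chloride secretion, went from 426 to 626 (0.55). The phosphodiesterase gene PDE4D went from 257 to 162 (-0.66), and WNK4, a kinase that controls cation-chloride cotransport, from 98.1 to 49.7, below the floor.

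**Figure D3:**
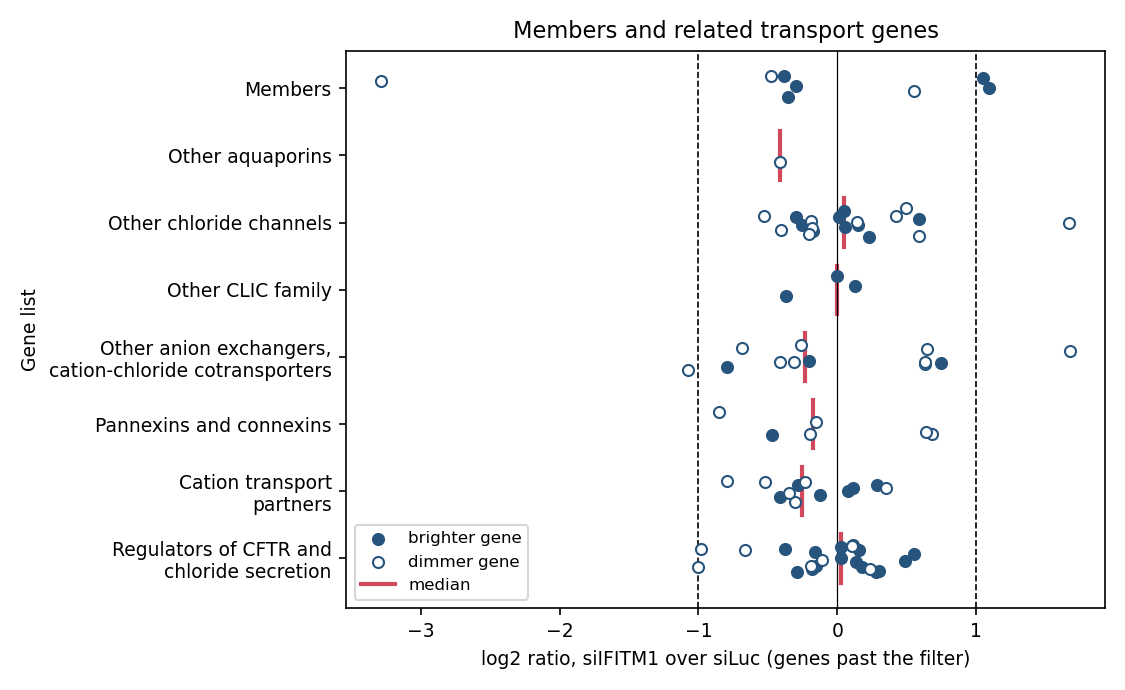
Log2 ratios of siIFITM1 over siLuc for the 8 described genes past the filter (top row, brightest probe set) and for the 75 genes of the 7 related lists that passed. Filled points are brighter genes, open points are dimmer genes, red bars are list medians, and dashed lines mark 2-fold. The list medians lie between -0.41 (a single gene) and 0.05, and each related gene outside the dashed lines is a dimmer gene.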

How the data were processed

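Total RNA of 2 HT-29 samples was amplified, biotin labelled and read on 1 single-colour array each, per the labels' protocols. The deposited values are intensities (signals on a linear scale) made with MAS5. The tool is named in the submitters' processing notes, while its version and settings are not given in the sources used here. A mean signal without the outer 2% at each end was 500.1 on both arrays, so they had a common scale. No detection calls were used. Precision is limited by the number of arrays.

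Of 54613 probe sets that are not controls, 41091 name 1 gene in the platform annotation, 1801 several and 11721 none. Symbols of 41037 were brought up to date by Entrez identifier from a RefSeq table of GRCh38.p14, which was otherwise used only for gene order. Signals were taken to log2 with no further scaling. Related genes were named where they were among the 4 largest ratios of their list and all probe sets past the filter had 1 sign. The genes and lists were chosen with earlier results of these data known. The calculation was tested on simulated data. Alternatives covered scaling, pseudocount, floor, filter, probe set summary and fold threshold, and 1 of them, the mean over probe sets past the filter, was added after seeing the data. Python 3.11.15, numpy 2.4.6, pandas 2.3.3, scipy 1.17.1, statsmodels 0.14.6 and matplotlib 3.10.9 were used.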

Additional observations from a re-analysis of the deposited data

How the results depend on the processing

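The 8 genes past the filter kept the sign of their log2 ratio in all 76 values recomputed under the alternatives that gave one. In 71 of these the value moved by less than the SD between probe sets of the same gene. Many of the 76 could not differ from the main value, so neither count measures stability. Changing the filter alters only which genes are kept. Raising signals to the floor left these genes as they were, because both their signals lie above it. Leaving out probe sets with a shared ID ending changed AQP1 alone. AQP5 and AQP11 have a single probe set each, so a mean over probe sets is the same value. The exceptions were AQP5 with a pseudocount of 32 (-2.77), PANX1 with the mean over all probe sets or over those past the filter (0.68 in both), and CLIC5 with the same means (1.59 and 0.84). The CLIC5 value of 1.59 includes 2 probe sets below the filter, with ratios of 2.05 and 3.39. The mean over probe sets past the filter was chosen after seeing the data. The count of 2 genes at least 2-fold higher became 1 with the mean over all probe sets, 0 with the mean over those past the filter and 0 at a 3-fold threshold. It was 3 with no filter, which adds the SLC26A3 reading from below the floor. The count of 1 gene at least 2-fold lower became 0 with the filter at the 75th percentile, where AQP5 is left out. With the mean over all probe sets CFTR did not pass the filter. Of the related lists, the medians of the CLIC genes, chloride channels and CFTR regulators changed sign under 3, 1 and 3 alternatives. The median of the cation transport list was -0.03 with the filter at the 75th percentile, that of the anion exchanger list -0.02 with no filter, and that of the pannexins and connexins between -0.47 and -0.10. SLC26A9 and GUCA2A were no longer 2-fold lower after quantile normalization, after subtraction of the lowess trend (span 0.3), with the pseudocount or with signals raised to the floor, and GUCA2A also after median centring. With the filter at the 75th percentile SLC26A9, GUCA2A, ANO7 and SLC4A4 were left out, and no related gene was 2-fold apart. No paired analysis was possible because each siRNA had 1 array. Signals near or below 57.4 limit AQP1, AQP8, SLC26A3 and the siIFITM1 value of AQP5.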
